A study of Mus musculus with 4 samples.

Results

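TRIM proteins are ubiquitin ligases built from a RING finger, B-box zinc fingers and a coiled coil, followed by a C-terminal region that recognises the substrate. The RING finger recruits a ubiquitin-charged E2 enzyme, the coiled coil pairs molecules into antiparallel dimers, and the C-terminal region, often a PRY-SPRY domain, sets the target. Many members act in antiviral sensing or are induced by interferon, others are chromatin cofactors, and some are largely restricted to muscle, neurons or the germ line. The genes described here are the protein-coding rows whose symbol is Trim followed by a number and at most 1 letter, which gave 68 of the 40092 rows and of the 20451 protein-coding rows in the table. Trim6 prompted the choice of the family through its difference between the genotypes compared here, so the family was chosen by a measured value of 1 member, and the values of Trim6 are a description that carries no test.

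RNA-seq was performed on alveolar type 2 (AT2) cells, the surfactant-producing progenitors of the alveolus, sorted as GFP+ cells from mouse lungs at day 14 after bleomycin, a drug that injures the lung and leads to fibrosis. The 2 Ctrl libraries came from Alkbh5flox/+; Sftpc-CreERT2; Rosa26-mTmG mice and the 2 A5-CKO libraries from Alkbh5flox/flox; Sftpc-CreERT2; Rosa26-mTmG mice. All mice received tamoxifen and bleomycin, so Ctrl cells also carried Cre and the reporter and could lose 1 allele of Alkbh5, an RNA m6A demethylase, from the loxP sites around the exon with its start codon. Whether a library came from 1 mouse or several is not given, so p-values measure the spread between these libraries. Cre was driven from the Sftpc locus, and GFP marks any cell in which Cre has acted and its descendants. Uninjured lungs and AT2 cells with both Alkbh5 alleles intact were not analysed here. The comparison asks which TRIM transcripts differed when both alleles rather than 1 were floxed.

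The libraries held 18144865 to 20811757 counts, and values are given as TMM-normalized counts (CPM) in the order Ctrl 1, Ctrl 2, A5-CKO 1 and A5-CKO 2. Alkbh5 itself (chr11:60537683-60558512, mm10) measured 81.7, 152, 19.3 and 36.6 CPM, lower in both A5-CKO libraries (log2 fold change -2.06 ± 0.46 SE, n = 2 per genotype, edgeR quasi-likelihood test, adjusted p = 0.528; DESeq2 on the same genes, adjusted p = 0.0248). All 11 AT2 markers were tested and all lay below 0 on the log2 fold change scale, with summed levels of 66892 and 93013 CPM in Ctrl against 49512 and 40826 CPM in A5-CKO. The 12 macrophage and myeloid markers summed to 3096 and 596 CPM in Ctrl against 420 and 2512 CPM in A5-CKO, the 7 lymphocyte markers to 668, 106, 179 and 657 CPM, and the 8 fibroblast markers to 425, 156, 98.8 and 1105 CPM. The genotypes overlapped in each of these sums. Of the 12 myeloid markers, the leukocyte gene Ptprc alone was higher in both A5-CKO libraries, at 50.9, 22.5, 84.3 and 82.8 CPM (unadjusted p = 0.026, edgeR). Ly6c2 alone was lower in both, at 88.5, 71.3, 38.3 and 61.9 CPM (unadjusted p = 0.091, edgeR). Of all genes tested, 20.3% were higher and 23.5% lower without overlap. AT1 (8), club (3) and ciliated (3) markers summed to 1250 to 1499, 2672 to 2753 and 129 to 136 CPM in Ctrl and to 1273 to 1293, 1232 to 1887 and 46.4 to 125 CPM in A5-CKO. All 3 club and all 3 ciliated markers had log2 fold changes below 0 (medians -0.73 and -1.51), and the ciliated genes Foxj1 and Ccdc153 had unadjusted p = 0.015 and 0.0093 (edgeR). Of the 6 AT1 markers tested, 4 had both A5-CKO values above both Ctrl values, where 20.3% of all genes tested did. Their median log2 fold change was 0.69, while Aqp5, the largest part of the AT1 sum, went the other way at 981, 951, 479 and 636 CPM. The AT1 markers Ager and Pdpn were too low to be tested, at 2, 6, 2 and 4 counts and at 3, 0, 17 and 3 counts. The part of these other cells in the TRIM values was not tested. Endothelial markers summed to 76.8 to 142 CPM in Ctrl and 86.0 to 132 CPM in A5-CKO, with Cldn5 at 0 in every library, and basal and erythroid markers to at most 3.16 and 15.8 CPM in any library. In bulk RNA a change in the number of cells of a type and a change in RNA per cell cannot be told apart.

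Of the 68 TRIM genes, 43 had enough counts to be tested (63.2%, beside 67.9% of all protein-coding genes) and 25 did not. Mean levels of the tested members ran from 0.305 to 169 CPM with a median of 14.9 CPM, where the median of all 16661 genes tested was 17.7 CPM. A mean level above 50 CPM was found for 7 members, 21 lay between 10 and 50 CPM, and 15 were below 10 CPM. The 68 genes together gave 1172, 1329, 1359 and 1202 CPM. Trim28, Trim8, Trim44 and Trim3 made up 49.1% and 49.6% of that sum in Ctrl against 37.5% and 42.3% in A5-CKO. The plot of levels by library sets all 43 tested members beside each other.

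**Figure D1:**
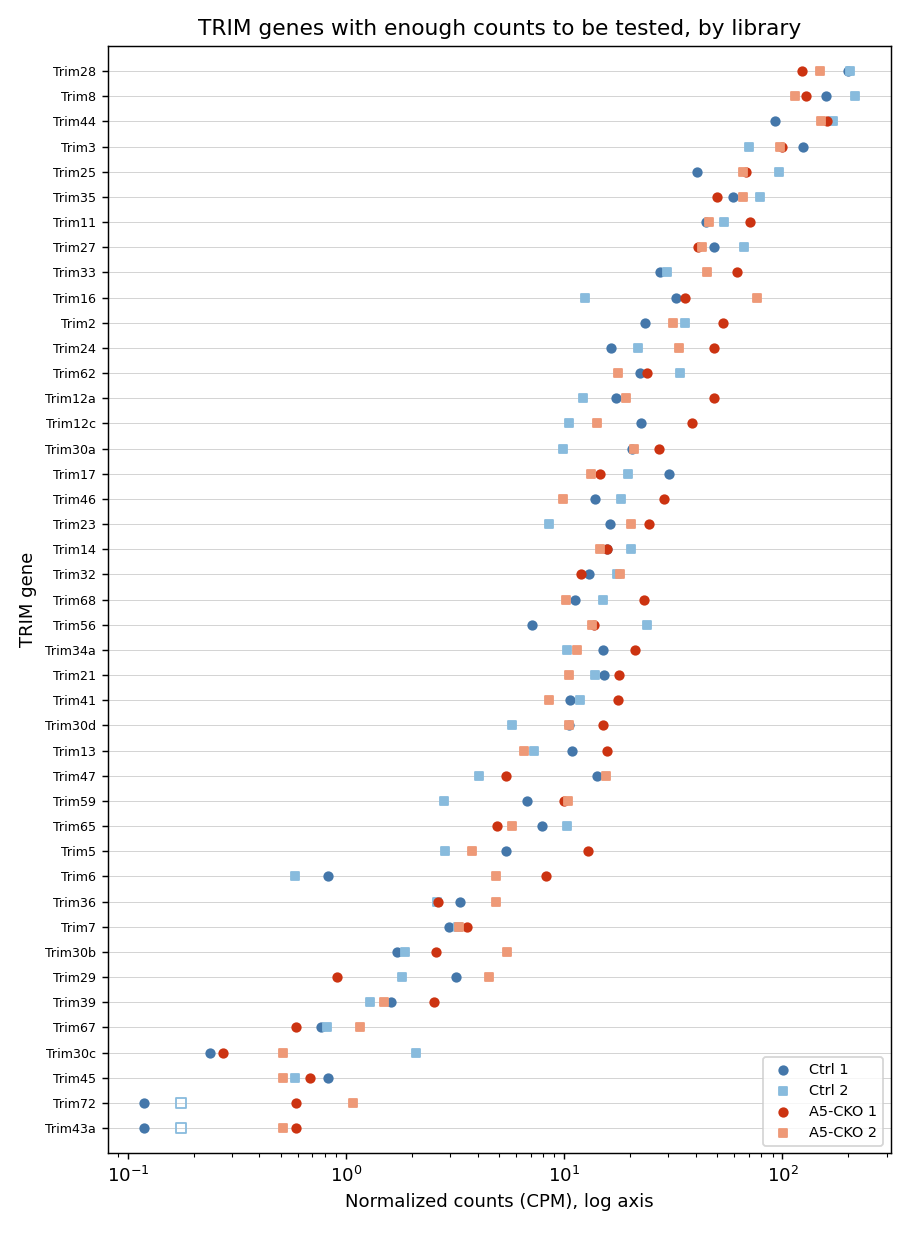
Normalized counts (CPM, log axis) of the 43 tested TRIM genes in each library, ordered by mean level. Blue points are Ctrl and red points A5-CKO, with circles for replicate 1 and squares for replicate 2, and open squares stand at the floor of 3 counts for libraries with a count of 0. Trim28 and Trim8 are at the top with both A5-CKO libraries below both Ctrl libraries, and Trim6 at 0.828 and 0.582 CPM in Ctrl lies at 8.24 and 4.87 CPM in A5-CKO.

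Of the 42 tested members other than Trim6, 4 (9.52%) had an unadjusted p under 0.05 and all 4 were higher in A5-CKO, where 9.18% of all genes tested passed in either direction and 4.48% in the higher and 4.71% in the lower direction. None passed the adjusted threshold in edgeR, where 0.0% of all genes did, and the smallest adjusted p among them was 0.528. DESeq2 with default filtering gave an adjusted p for 37 of them and likewise called none, where it called 0.385% of genes. Both A5-CKO libraries lay above both Ctrl libraries for 12 members (28.6%, beside 20.3% of all genes) and below them for 6 (14.3%, beside 23.5%), and the genotypes overlapped for the remaining 24. The fitted log2 fold change was above 0 for 28 members and below 0 for 14, 66.7% above 0 beside 49.1% of all genes. The median was 0.24, beside -0.02 over all genes. Without A5-CKO 1 the median of the tested members, Trim6 included, was -0.036 in place of 0.25, and without A5-CKO 2 it was 0.50. Fits without a library leave a lone library in a genotype, so no count of genes passing is read from them. With total counts in place of TMM the split was 35 to 7 and the median of all genes moved to 0.30. Trim72 and Trim43a reached 10 counts in A5-CKO libraries only, so they entered the test through the group in which they were high, and their direction was fixed by that filter. Both are among the 12 members higher without overlap and the 28 above 0. These shares and the median are therefore partly set by the filter, and no excess over all genes is read from them. Without Trim72 and Trim43a, 2 of 40 members (5.0%), Trim24 and Trim33, had an unadjusted p under 0.05.

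**Figure D2:**
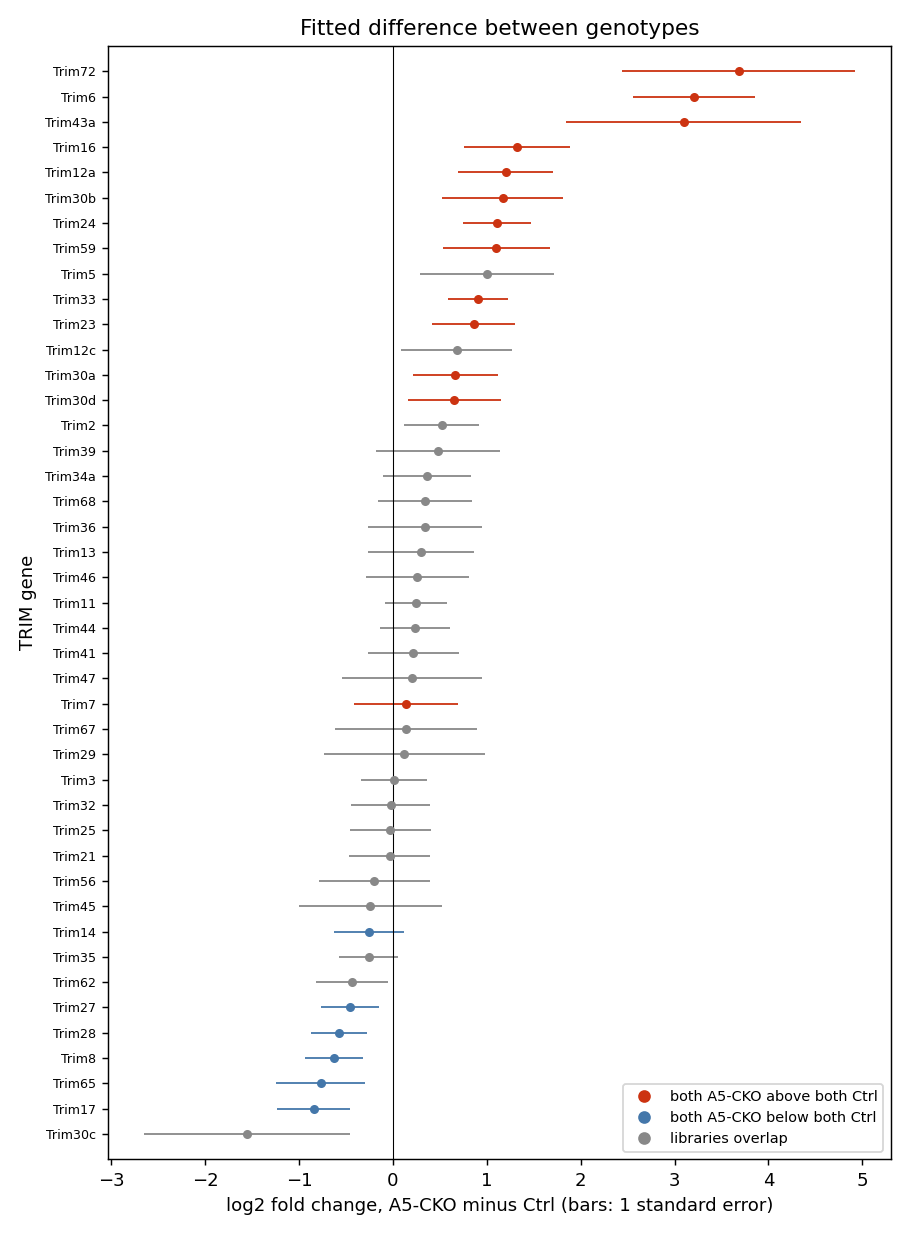
Fitted log2 fold change (A5-CKO minus Ctrl) of the 43 tested TRIM genes with 1 standard error. Red marks genes whose A5-CKO libraries both lie above both Ctrl libraries, blue those below, and grey those that overlap. The bars of Trim72 and Trim43a, with few counts, are the widest of the genes at the top, and Trim6 is shown as a description.

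Trim6 lies at chr7:104218795-104235152 on the plus strand (mm10) and encodes a ligase that assembles free ubiquitin chains which activate the kinase IKK-epsilon in interferon signaling. It had 14 and 10 counts in Ctrl against 182 and 114 in A5-CKO, or 0.828, 0.582, 8.24 and 4.87 CPM. The genotypes did not overlap, and the lower A5-CKO library was several times the higher Ctrl library. The mean was 0.705 ± 0.174 CPM in Ctrl and 6.56 ± 2.38 CPM in A5-CKO (SD, n = 2). The fitted log2 fold change was 3.21 ± 0.65 (SE). The ratio of normalized pooled counts was 9.25, with a 95% interval of 6.09 to 14.7. That interval covers counting error only and is no test, since Trim6 prompted the choice of the family. Leaving out each library in turn gave log2 fold changes from 2.77 to 3.53. None of the 50-base words of the longest Trim6 transcript occurs in another gene. Trim6 overlaps the annotated pseudogene Gm8667, for which no counts are available, so reads may be shared. Even in A5-CKO the transcript was scarce for the family, at 1.68 and 0.996 CPM per kilobase of exon, below the 10 highest members in every library. The high and low myeloid libraries were split between the genotypes. Trim6 was highest in A5-CKO 1, where the myeloid sum was lowest (420 CPM). Ptprc, 1 of the 12 myeloid markers, was at 84.3 CPM in A5-CKO 1 and at 82.8 CPM in A5-CKO 2. The part of other cells in the Trim6 values was not tested.

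Trim6 is the lowest-coordinate gene of a TRIM cluster on chromosome 7, in which 10 members lie within 289 kb (chr7:104218795-104507853). The order was Trim6, Trim34a, Trim5, Trim12a, Trim34b, Trim12c, Trim30b, Trim30c, Trim30a and Trim30d, and the nearest members outside it, Trim68 and Trim3, lay 1.53 and 1.10 Mb away. Genes of this cluster are known for retroviral restriction and for induction by interferon. Promoter windows from RefSeq (GRCm38.p6, 250 bases before to 50 after a gene's start, read on the gene's strand) are shown for 4 of them because the word GAAA, any 2 bases and GAAA again, the core of an interferon-stimulated response element, are present in some and absent in Trim6. Capitals mark that element on either strand or the GC box GGGCGG on either strand, which cannot overlap each other.
Trim6, chr7:104218545-104218844, plus strand: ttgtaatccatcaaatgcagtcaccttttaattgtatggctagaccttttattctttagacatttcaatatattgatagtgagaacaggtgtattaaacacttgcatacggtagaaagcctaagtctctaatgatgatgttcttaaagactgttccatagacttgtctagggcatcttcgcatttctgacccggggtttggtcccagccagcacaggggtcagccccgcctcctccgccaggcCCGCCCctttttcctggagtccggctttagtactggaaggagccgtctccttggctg
Trim34a, chr7:104244207-104244506, plus strand: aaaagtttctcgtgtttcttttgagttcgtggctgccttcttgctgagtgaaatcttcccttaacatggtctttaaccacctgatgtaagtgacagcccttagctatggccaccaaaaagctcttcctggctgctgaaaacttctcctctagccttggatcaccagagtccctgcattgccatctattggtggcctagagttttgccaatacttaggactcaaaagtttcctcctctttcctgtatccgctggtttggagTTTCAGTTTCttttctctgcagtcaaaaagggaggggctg
Trim5, chr7:104288057-104288356, minus strand: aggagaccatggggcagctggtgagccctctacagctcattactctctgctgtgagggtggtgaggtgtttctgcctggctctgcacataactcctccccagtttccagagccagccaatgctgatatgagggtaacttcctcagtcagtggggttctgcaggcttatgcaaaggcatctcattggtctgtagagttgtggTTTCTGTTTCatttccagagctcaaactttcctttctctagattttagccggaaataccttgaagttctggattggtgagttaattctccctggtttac
Trim30a, chr7:104465144-104465443, minus strand: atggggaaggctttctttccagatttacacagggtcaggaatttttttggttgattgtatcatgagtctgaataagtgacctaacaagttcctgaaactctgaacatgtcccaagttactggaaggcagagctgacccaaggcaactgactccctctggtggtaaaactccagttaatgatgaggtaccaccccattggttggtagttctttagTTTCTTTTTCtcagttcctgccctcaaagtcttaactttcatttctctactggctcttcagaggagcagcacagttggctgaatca

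The element was found in 6 of the 10 cluster genes, Trim34a, Trim5, Trim12a, Trim12c, Trim30a and Trim30d, and in 10 of the 67 windows of 53 TRIM genes, where 3.44% of all 32851 windows hold it. The other 3 genes were Trim2, Trim21 and Trim26. It was absent from the windows of Trim6, Trim34b, Trim30b and Trim30c. The GC box was present in 26 of the 67 TRIM windows and in 35.7% of all windows, and within the cluster in Trim6 alone. These letters are a description of the windows and no binding was measured.

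Trim12a, a mouse relative of the retroviral restriction factor Trim5, measured 17.3 and 12.2 CPM in Ctrl against 48.5 and 19.2 CPM in A5-CKO. Both A5-CKO libraries lay above both Ctrl libraries, but A5-CKO 2 by little. The log2 fold change was 1.20 ± 0.51 (SE, unadjusted p = 0.051, adjusted p not under 0.528), and it was 0.37 without A5-CKO 1 and, corrected for GC content and transcript length, 0.77 (unadjusted p = 0.113). Trim12c, its neighbour, had 22.5, 10.5, 38.7 and 14.1 CPM and Trim5 had 5.38, 2.85, 12.8 and 3.76 CPM. In both genes A5-CKO 1 was the highest library and Ctrl 1 exceeded A5-CKO 2. These 2 genes share sequence, since 24.5% of the 50-base words of Trim12c occur in Trim5 and 24.7% of those of Trim5 occur in Trim12c, so reads may be divided between them.

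Trim30a, which restrains Toll-like receptor signaling in myeloid cells, had 20.3 and 9.89 CPM in Ctrl against 27.1 and 20.8 CPM in A5-CKO. Trim30d had 10.5, 5.76, 15.0 and 10.5 CPM. In both genes Ctrl 2 was the lowest library and A5-CKO 2 was almost level with Ctrl 1, so the genotypes were separated by a small margin. The log2 fold changes were 0.67 ± 0.46 for Trim30a and 0.65 ± 0.50 for Trim30d (SE). Without Ctrl 2 they were 0.19 and 0.24, and without Ctrl 1 they were 1.33 and 1.20, and Trim30d was 0.36 without A5-CKO 1. Trim30b measured 1.71, 1.86, 2.58 and 5.47 CPM, with a log2 fold change of 1.17 ± 0.65 (SE) that was 0.50 without A5-CKO 2. It overlaps Gm38525, at 36, 60, 78 and 182 counts, and Gm36430, at 5, 9, 27 and 64 counts, so reads may be shared. Trim30c went the other way through Ctrl 2 alone, with 0.237, 2.09, 0.272 and 0.513 CPM, and its log2 fold change of -1.55 became 0.68 without that library. Trim34a overlapped between genotypes at 15.0, 10.3, 21.1 and 11.4 CPM, and Trim34b, which holds 41.3% of the 50-base words of Trim34a, was not tested at 0, 8, 13 and 2 counts.

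Among the 8 tested cluster genes other than Trim6, 4 did not overlap between genotypes and were higher in A5-CKO (background 20.3%), none was lower (background 23.5%), and none had an unadjusted p under 0.05. Their median log2 fold change was 0.67, beside 0.18 for the 34 tested members outside the cluster. The median depended on A5-CKO 1, without which it was 0.11 with 4 of the 8 above 0, and on the Ctrl library retained, being 1.27 without Ctrl 1 and 0.40 without Ctrl 2. A5-CKO 1 was the highest library for Trim34a, Trim5, Trim12a, Trim12c, Trim30a and Trim30d. Its myeloid and lymphocyte sums were below those of Ctrl 1 and A5-CKO 2. Ptprc, 1 of the 12 myeloid markers, was at 84.3 CPM in A5-CKO 1 and at 82.8 CPM in A5-CKO 2. The part of other cells in the cluster values was not tested. With a correction for GC content and transcript length, the medians were 0.36 in the cluster and 0.14 outside it.

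**Figure D3:**
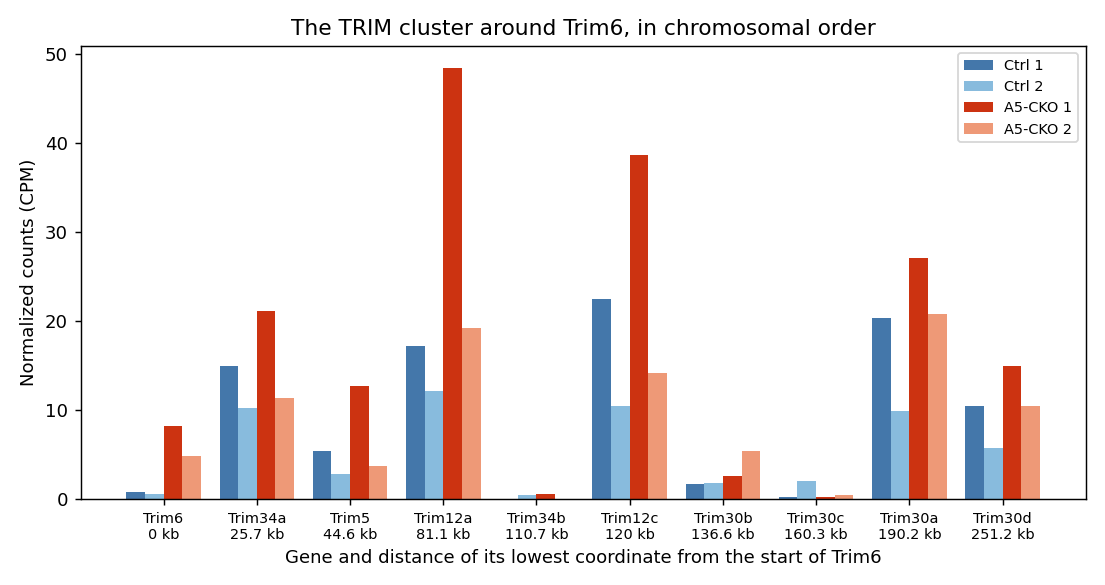
Normalized counts (CPM) of the 10 chromosome 7 cluster genes in each library, in chromosomal order with the distance of each gene's lowest coordinate from the start of Trim6 in kb. The bars of A5-CKO 1 are the highest for Trim12a (48.5 CPM) and Trim12c (38.7 CPM), and Trim6 is near 0 in both Ctrl libraries.

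The PHD-bromodomain members are chromatin readers that act as transcriptional cofactors. Trim24, a nuclear receptor cofactor (chr6:37870811-37968445), had 16.3 and 21.8 CPM in Ctrl against 48.7 and 33.5 CPM in A5-CKO. The A5-CKO pair lay wholly above the Ctrl pair, with a log2 fold change of 1.11 ± 0.37 (SE, unadjusted p = 0.0197), and leaving out each library gave 0.80 to 1.32. Trim33, which works with Smad proteins in TGF-beta signaling (chr3:103279293-103358770), had 27.5 and 29.6 CPM in Ctrl against 62.2 and 45.2 CPM in A5-CKO. The 2 Ctrl libraries were close together and the A5-CKO libraries were both well above them, with a log2 fold change of 0.91 ± 0.32 (SE, unadjusted p = 0.0254). With the GC content and length correction, the value of Trim33 was 0.40 (unadjusted p = 0.184) and that of Trim24 1.09 (unadjusted p = 0.0138). Neither passed the adjusted threshold.

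Trim28, also called KAP1, is the corepressor recruited by KRAB zinc finger proteins (chr7:13024152-13031032) and was the most abundant member by CPM in Ctrl 1. It measured 200 and 204 CPM in Ctrl against 123 and 148 CPM in A5-CKO. Both A5-CKO libraries were lower, by more than the difference between the Ctrl libraries, and the log2 fold change was -0.58 ± 0.30 (SE, unadjusted p = 0.093), or -0.27 with the GC content and length correction. Trim66, the testis-enriched relative, had 6, 4, 4 and 10 counts and was not tested. Of the 12 KAP1 corepressor partners, all tested, 1 had an unadjusted p under 0.05 (background 9.18%) and the median log2 fold change was 0.12. That gene was Tasor, a subunit of the HUSH silencing complex, with 24.8 and 23.2 CPM in Ctrl and 78.5 and 36.8 CPM in A5-CKO (log2 fold change 1.26 ± 0.42 SE, unadjusted p = 0.020).

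Levels are compared between genes per kilobase of exon. The 10 highest members by mean level per kilobase, in falling order, were Trim8, Trim28, Trim44, Trim3, Trim11, Trim35, Trim25, Trim27, Trim16 and Trim13. Trim8, a regulator of NF-kB and p53 signaling, had 42.9, 57.9, 34.5 and 30.7 CPM per kilobase and Trim28 had 48.2, 49.0, 29.6 and 35.6. These neighbours in the order did not differ beyond their spread over libraries. Trim44, which lacks a RING finger, followed with 16.3, 30.2, 28.3 and 26.5 CPM per kilobase and Trim3, an NHL-repeat member, with 27.3, 15.3, 21.7 and 21.3, again with overlapping values. Trim11, Trim35 and Trim25 overlapped at 12.5 to 19.8, 10.9 to 17.1 and 7.06 to 16.7 CPM per kilobase. Trim27, Trim16 and Trim13 ended the list at 7.49 to 12.1, 2.71 to 16.7 and 3.94 to 9.55 CPM per kilobase.

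On the CPM scale Trim8 measured 159 and 215 in Ctrl against 128 and 114 in A5-CKO, both A5-CKO libraries being lower (log2 fold change -0.63 ± 0.31 SE, unadjusted p = 0.084). The correction for GC content and length gave -0.34. Trim35, first described as a suppressor in blood cells, overlapped between genotypes at 59.5, 79.0, 50.1 and 65.9 CPM. Trim44 was lowest in Ctrl 1 and otherwise alike, at 92.0, 170, 160 and 149 CPM. Trim11, at 44.6, 53.8, 71.0 and 46.2 CPM, and Trim13, a ligase anchored in the endoplasmic reticulum, at 10.8, 7.27, 15.8 and 6.50 CPM, overlapped as well. Trim13 overlaps Dleu2 in the annotation.

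Trim16, which lacks a RING finger and acts in the response to damaged endomembranes and oxidative stress, had 32.6 and 12.4 CPM in Ctrl against 35.7 and 76.5 CPM in A5-CKO. A5-CKO 2 was the high library and Ctrl 2 the low one, while Ctrl 1 and A5-CKO 1 were nearly equal. The log2 fold change was 1.32 ± 0.56 (SE, unadjusted p = 0.052) and was 0.64 without A5-CKO 2, 0.75 without Ctrl 2 and 2.25 without Ctrl 1. Trim17, linked to apoptosis in neurons, had 30.3 and 19.5 CPM in Ctrl against 14.5 and 13.3 CPM in A5-CKO. The A5-CKO libraries were both lower (log2 fold change -0.84 ± 0.39 SE, unadjusted p = 0.068), with -0.43 without Ctrl 1. Of the 50-base words of Trim17, 18.3% occur in the overlapping histone gene. Trim17 overlaps H2aw, at 355, 245, 193 and 216 counts, and H3f4, at 2, 0, 4 and 0 counts, so reads may be shared. Trim23, which carries an ARF GTPase domain, had 16.2, 8.49, 24.5 and 20.3 CPM (log2 fold change 0.86 ± 0.44 SE, unadjusted p = 0.094), and its value became 0.42 when Ctrl 2 was left out, 1.46 when Ctrl 1 was, and 0.41 with the GC content and length correction.

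Trim11, Trim17, Trim58 and Trim16 lie 1.55, 1.56, 1.89 and 2.26 Mb from Alkbh5 on chromosome 11, the chromosome that carries the floxed allele. Of the 103 genes tested within 2.5 Mb of Alkbh5, 6 (5.83%) had an unadjusted p under 0.05. In that window 13 genes did not overlap and were higher (12.6%, background 20.3%) and 40 were lower (38.8%, background 23.5%), with a median log2 fold change of -0.25. Trim17 was among those lower and Trim16 among those higher. Whether the region around the floxed allele has a part in these values was not tested.

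None of the 5 members listed here for innate sensing had an unadjusted p under 0.05 (background 9.18%, edgeR). The list is not complete, and Trim6, Trim30a and Trim38, which have related roles, are described separately. Trim25, which ubiquitinates the RNA sensor RIG-I, had 40.6, 96.0, 68.3 and 65.9 CPM, and Trim56, which acts on the cGAS-STING pathway, had 7.10, 24.0, 13.7 and 13.4 CPM. In both genes the 2 Ctrl libraries were the extremes and the A5-CKO libraries lay between them. Trim21, a cytosolic antibody receptor, overlapped between genotypes at 15.2, 13.8, 17.8 and 10.5 CPM. Trim27 measured 48.7, 66.8, 41.2 and 43.0 CPM and Trim65, which acts on the RNA sensor MDA5, 7.86, 10.2, 4.89 and 5.73 CPM. For these 2 genes the A5-CKO pair lay wholly under the Ctrl pair (background 23.5%), and for none of the 5 wholly above it (background 20.3%). All 5 had a log2 fold change below 0, where 49.1% of all genes tested lay above 0. Their median was -0.20, and Trim25 (-0.026) and Trim21 (-0.034) were near 0.

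Of 14 innate sensing genes on which TRIM proteins act, all were tested, 1 had an unadjusted p under 0.05 (background 9.18%) and the median log2 fold change was 0.35. The A5-CKO values exceeded both Ctrl values for 7 of the 14 (background 20.3%) and were under both for 2 (background 23.5%). The gene with the small p was Tbk1, the kinase that phosphorylates IRF3, at 36.1 and 35.5 CPM in Ctrl against 65.1 and 54.1 CPM in A5-CKO (log2 fold change 0.74 ± 0.29 SE, unadjusted p = 0.0413). Of 19 interferon-induced genes, all tested, none had an unadjusted p under 0.05 (background 9.18%), 3 did not overlap and were higher (background 20.3%) and 3 lower (background 23.5%), and the median was -0.13. Their summed levels were 586 and 315 CPM in Ctrl against 357 and 368 CPM in A5-CKO, so A5-CKO lay between the Ctrl libraries. Of 13 E1 and E2 enzymes that charge and pass ubiquitin to ligases, 1 had an unadjusted p under 0.05 (background 9.18%) and 4 had both A5-CKO values under both Ctrl values (background 23.5%), with none the other way (background 20.3%) and a median of -0.17. The gene with the small p was Ube2e2, at 45.0 and 49.3 CPM in Ctrl against 27.4 and 29.6 CPM in A5-CKO (log2 fold change -0.73 ± 0.30 SE, unadjusted p = 0.0474).

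The striated muscle members were close to or below the floor in Ctrl. Trim72, which helps to reseal damaged plasma membranes (chr7:128003462-128011393), had 2 and 0 counts in Ctrl against 13 and 25 in A5-CKO. The ratio of normalized pooled counts was 14.2 with a 95% counting interval of 3.68 to 122, and the fitted log2 fold change was 3.68 ± 1.24 (SE). It passed the filter only through A5-CKO, so no p is read from it, and the interval covers counting error only and is no test. The fitted value was 7.15 without Ctrl 1 and 2.54 with a prior count of 2. Of the 50-base words of Trim72, 20.2% occur in Gm15533, so reads may be divided between them. Trim55, a muscle RING finger protein, had 0 and 0 counts in Ctrl against 8 and 9 in A5-CKO. With 3 counts over the Ctrl group as the floor, the ratio was 4.25, which leaves out the counting error of the A5-CKO counts. Its relatives had 1, 0, 0 and 4 counts (Trim63) and 0, 0, 0 and 4 counts (Trim54), at or near the floor.

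Trim43a and Trim43c belong to a family expressed in the preimplantation embryo. Trim43a (chr9:88580891-88588824) had 2 and 0 counts in Ctrl against 13 and 12 in A5-CKO, a ratio of 9.37 with a 95% counting interval of 2.34 to 81.6 and a log2 fold change of 3.10 ± 1.25 (SE). It too passed the filter only through A5-CKO and no p is read from it, and its interval is likewise no test. The fitted value was 6.55 without Ctrl 1, 2.12 without Ctrl 2 and 2.03 with a prior count of 2, and without A5-CKO 1 it could not be fitted. Trim43c was not tested and had 3, 3, 21 and 8 counts, a ratio of 3.62 (1.48 to 10.7). Sequence shared with other genes, Trim43b above all, covered 48.1% of the 50-base words of Trim43a and 59.3% of those of Trim43c, and Trim43a overlaps the annotated gene Gm51715, which had 2, 0, 11 and 6 counts. Reads of these genes may therefore have been divided or shared. Trim43b was at 0 in every library.

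The NHL-repeat members, whose C-terminal propeller binds RNA or proteins, overlapped between genotypes. Trim2, which regulates neurofilaments, had 23.4, 35.7, 53.3 and 31.4 CPM, Trim3 had 125, 69.9, 99.1 and 97.5 CPM, and Trim32, mutated in a form of muscular dystrophy, had 13.0, 17.5, 12.0 and 18 CPM. Trim71, a stem cell regulator, had 2 counts in A5-CKO 1 and 0 in the other libraries. The median of the 3 tested was 0.02. Of the neuronal members, Trim46, an organiser of the axon initial segment, had 13.8, 18.3, 28.6 and 9.87 CPM, Trim67 had 0.769, 0.815, 0.589 and 1.15 CPM, and Trim9 was untested at 0, 5, 8 and 6 counts. Trim46 overlaps Krtcap2 in the annotation, whose reads may contribute. A5-CKO libraries bracketed the Ctrl libraries for both tested neuronal genes.

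Trim29, a member of basal and stratified epithelium, was low and uneven at 3.19, 1.80, 0.905 and 4.53 CPM, and Krt5, Trp63 and Krt14 together reached at most 3.16 CPM in any library. Trim59, a membrane-anchored member, had 114, 48, 221 and 244 counts, the 2 A5-CKO libraries being the higher ones also after normalization. Trim7, linked to glycogen metabolism, was also separated by genotype, but by a margin smaller than the difference between the Ctrl libraries, at 2.96, 3.26, 3.58 and 3.29 CPM. Trim14, a mitochondrial adaptor, was lower at 15.7, 20.3, 15.6 and 14.6 CPM, again by little, and shares 50.2% of its 50-base words with Nans. The other tested members, given here only by their overlap, are Trim62, Trim68, Trim41, Trim47, Trim36, Trim39 and Trim45, and all 7 overlapped between genotypes.

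Of the 25 members not tested, 8 had no count in any library (Trim60, Trim61, Trim43b, Trim52, Trim15, Trim10, Trim40 and Trim31), and 17 had between 1 and 30 counts in their highest library. Trim69 reached 30 counts, in A5-CKO 1, with 9, 0 and 4 counts in the other libraries. Trim38, which restrains innate sensing, had 0 and 0 counts in Ctrl against 6 and 6 in A5-CKO. With 3 counts over the Ctrl group as the floor, the ratio was 3.0, again leaving out the counting error of the A5-CKO counts. Trim26 had 4, 4, 4 and 2 counts and Trim37, a ligase of peroxisomes and centrosomes, 0, 3, 1 and 2. A member at 0 may still be present below about 0.128 to 0.177 CPM, the level of 3 counts in these libraries.

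Across the 42 members the log2 fold change was lower at higher GC content of the longest transcript (Spearman's rho = -0.55 over genes of the same 4 libraries), and for all 15237 genes with a sequence the value was -0.37. Between the 2 Ctrl libraries the corresponding value for the members was -0.28, and between the 2 A5-CKO libraries -0.28. Over all 15237 genes these values were -0.15 and -0.12, weaker than between the genotypes. Libraries of 1 genotype thus also differed in this way, but less. Trim23, Trim12a and Trim33 at the GC-poor end were higher in A5-CKO and Trim28 and Trim8 at the GC-rich end lower, whereas Trim72 was GC-rich and higher. Correcting each library for GC content and length left the median of the members at 0.27 and that of Trim6 at 3.01. It brought Trim28 to -0.27, Trim8 to -0.34, Trim23 to 0.41, Trim33 to 0.40 and Trim12a to 0.77 and left Trim24 and Trim16 at 1.09 and 1.22. What part base composition has in these differences was not tested further.

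**Figure D4:**
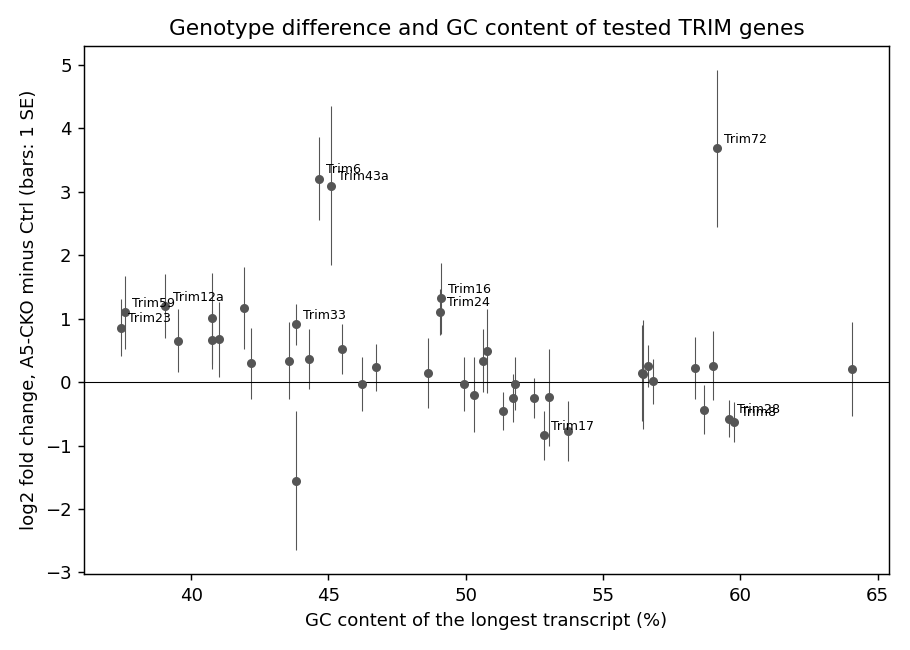
Fitted log2 fold change (A5-CKO minus Ctrl, bars 1 standard error) against the GC content of the longest transcript (%) for the 43 tested TRIM genes. Members with low GC content lie mostly above 0 and those with high GC content nearer to or below 0 (rho = -0.55 over the 42 genes other than Trim6), with Trim72 at the GC-rich end as an exception.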

How the data were processed

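Counts were deposited by the authors as whole reads per gene for 4 libraries. Per their Methods, reads were trimmed (Trim Galore 0.6.10), aligned with HISAT2 2.2.1 to mm10, stripped of duplicates with sambamba and counted with featureCounts 2.0.3 on an NCBI annotation. Removal of ribosomal RNA is described only under RNA-seq, beside peak calling, so whether it was applied to these counts is not known. Counting is described under MeRIP-seq and was taken as that of the RNA-seq. Its strand setting is not given in the sources used here, so reads of overlapping genes cannot be told apart. Removal of duplicates can lower the highest counts.

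Groups came from the sample labels. From the counts, edgeR 4.0.16 (R 4.3.3; TMM, filterByExpr, quasi-likelihood test, Benjamini-Hochberg adjustment) was fitted to 16661 of 40092 genes, with a common dispersion of 0.173. All adjusted p-values are over these 16661 genes. SE was taken as the fold change (log2) over the root of its F statistic. The fit was checked on simulated counts. DESeq2 1.42.0 and limma 3.58.1 were alternatives. The members and gene lists were chosen with earlier results of these data known. Named genes are Trim6, the 10 other members with the smallest p (past 0.05, or else not overlapping), the 10 highest per kilobase, the Trim6 cluster and fixed lists by role. Members named for other reasons were chosen after their values were seen. The GC content and length correction (splines with 4 degrees of freedom per library) covers 91.5% of the genes tested and was chosen after seeing the data. Coordinates and promoters are RefSeq on GRCm38.p6, with promoters for 53 of the 68 members. Exon lengths, GC content and shared 50-base words are from GENCODE gene models, and the words of a member are those of its longest transcript. Intervals of count ratios are exact (Clopper-Pearson, 95%), cover counting error only and test no member. Libraries were made with a SMARTER mRNA kit.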

Additional observations from a re-analysis of the deposited data

How the results depend on the processing

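The count of 4 members with an unadjusted p under 0.05 was 7 with total counts only, where 11.3% of all genes passed. The replicate numbers do not pair the libraries (deviations of same-numbered libraries correlated at -0.37 over 15237 genes). With the number as a block the count was 1 (Trim24), where 4.53% of all genes passed, and the block left the median log2 fold change at 0.22. The crossed pairing of the replicate numbers, chosen after seeing the data, gave 9 at an unadjusted p under 0.05 (15.5% of all genes) and 1 at an adjusted p under 0.05. The share of all genes at that adjusted threshold was not computed, so the 1 member is not read as a result about the family. Fits without a library are given by their fold changes only, since they leave a lone library in a genotype. RLE, upper-quartile, DESeq2, voom, unfiltered, stricter, robust and GC-corrected fits gave 3 to 6, where 6.25% to 10.7% of all genes passed. None of these found an adjusted p under 0.05 for a member other than Trim6. The median log2 fold change of the tested members (0.25 with Trim6) was 0.57 with total counts only and ran from -0.036 when A5-CKO 1 was left out to 0.50 when A5-CKO 2 was. The Alkbh5 difference passed the adjusted threshold in DESeq2, with -2.01 on the same genes (adjusted p = 0.0248) and -2.02 with default filtering (adjusted p = 0.0224). Of 284 values of 18 named members under 16 alternatives (the crossed pairing was run for the counts only), 280 kept their direction and 4 reversed, Trim30c at 0.68 without Ctrl 2, and Trim34a at -0.17, Trim5 at -0.14 and Trim12c at -0.23 without A5-CKO 1. Most of these alternatives refit the same 4 libraries, and some of the members were named because their libraries did not overlap. A kept direction is therefore no independent support. Without each library in turn, Trim30c ran from -2.33 to 0.68, Trim34a from -0.17 to 0.71, Trim5 from -0.14 to 1.60 and Trim12c from -0.23 to 1.38. A lone library left in a genotype was assumed to vary like the others. The cause was not tested. Depth limits the 25 untested members and Trim72 and Trim43a.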

Other observations

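TRIM proteins under other symbols were described separately. Mid1, Mid2, Pml and Mefv were all tested, none had an unadjusted p under 0.05, and 3 of the 4 had both A5-CKO libraries above both Ctrl libraries (background 20.3%), with a median log2 fold change of 0.43.

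Libraries of 1 genotype also differed for members of the family. Of the 34 members with at least 30 counts in every library, 7 differed by 2-fold or more between the Ctrl libraries and 9 between the A5-CKO libraries, with median folds of 1.44 and 1.40. Trim56 was at 7.10 and 24.0 CPM, Trim25 at 40.6 and 96.0 CPM and Trim47 at 14.1 and 4.07 CPM in Ctrl 1 and Ctrl 2. In A5-CKO 1 and A5-CKO 2, Trim47 was at 5.39 and 15.6 CPM.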
